A study of Mus musculus with 12 samples.

Results

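The gene expression profile of RAW 264.7 cells after stimulation with lipopolysaccharide (LPS) alone is described here, with no comparison with another treatment. RAW 264.7 is an established mouse macrophage-like line, and LPS is the glycolipid of the outer membrane of Gram-negative bacteria. The profile rests on the 3 arrays titled as RAW 264.7 cells with LPS and nothing else, of 12 arrays in the study, and on all 19505 annotated genes of the table. The study had 4 groups of 3 arrays, in which cells received LPS alone, LPS with TsSP (a helminth product), LPS with inulin, or LPS with both. Every group received LPS at 500 ng/mL, TsSP was given at 50 µg/mL and inulin at 500 µg/mL, and stimulation in all groups lasted 6 hours, at 37°C and 5% CO2. Arrays of unstimulated cells were not analysed here, so signals that LPS raised and signals that the line shows at rest cannot be told apart. The line is a transformed cell line grown in culture, and the labels do not state whether separate cultures gave the 3 arrays, so the spread between them may be technical.

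Macrophages sense LPS through a receptor complex of CD14, MD-2 (the product of Ly96) and Toll-like receptor 4. One branch of the signal, through the adaptor MyD88, frees NF-kB and leads to inflammatory cytokines, chemokines and enzymes. Another, through the adaptor TRIF (the product of Ticam1), leads to interferon beta, which acts back on the cells through STAT and IRF factors and turns on antiviral genes. Macrophages are known for the ingestion and digestion of particles, for surface receptors of antibody, complement and microbial sugars, and for toxic nitric oxide and oxygen radicals.

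Signals are given on the deposited scale, taken as log2, with 1 probe set for each gene. A probe set's signal depends on its probes as well as on its transcript, so the order of genes below is an order of signals and not of transcript numbers. The brightest of the 23 background probes of each array, which match no transcript, read 6.16 on replicate 1, 6.28 on replicate 2 and 6.27 on replicate 3. A gene was counted as above background when its signal was higher than that probe on each of the 3 arrays, as not above background when it was so on none, and as mixed otherwise. Counts for a group of genes are over the members of a chosen list that the table measures, which need not be the whole family. By this rule 8518 of 19505 genes (43.7%) were above background, 606 (3.11%) were mixed and 10381 (53.2%) were not above background. The count of any list below is to be read beside this 43.7%. A stricter level was the 95th percentile of the 5222 intron control probe sets, at 8.16, 8.13 and 8.09, which 6939 genes (35.6%) passed on all 3 arrays. The other 1579 genes counted as above background did not pass it on all 3 arrays, and between 18.3% and 19.3% of the intron controls also read above the background probes. The exon control probe sets, with array medians of 11.00, 11.11 and 11.18, were above background in 86.0% to 86.5% of cases. A gene read below background by its probe set need not lack a transcript.

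**Figure D1:**
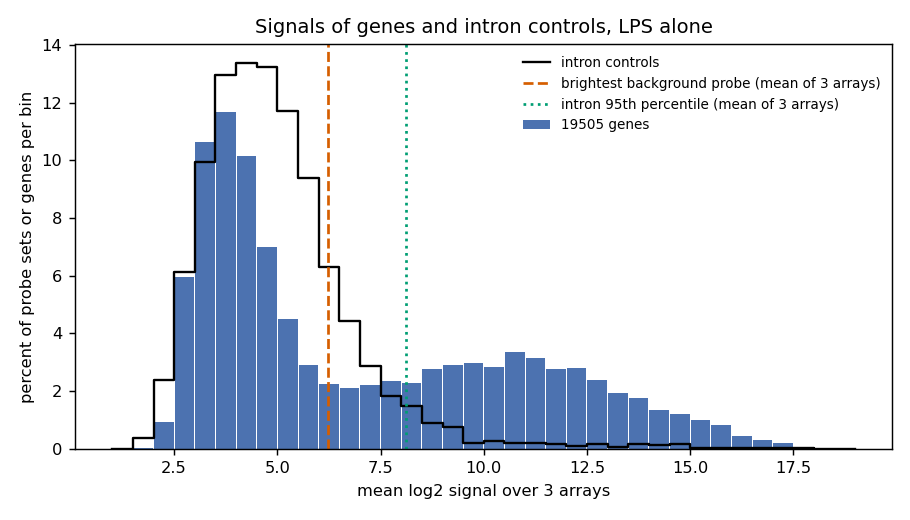
Share of probe sets or genes (percent per bin of mean log2 signal over the 3 arrays) for the 19505 genes (bars) and the intron controls (black outline), with the mean level of the brightest background probe (dashed) and of the intron 95th percentile (dotted). The genes form a dim peak to the left of the dashed line and a broad shoulder around 10 to 12, while the intron controls have the dim peak only.

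The median gene read 5.37, the median gene above background 10.75 and the median gene not above background 3.87. A mean signal of at least 12 was reached by 2784 genes, of at least 16 by 202 genes and of at least 18 by 5. On the linear scale, if the logarithm is of base 2, the 10 brightest genes held 4.01% of the summed signal of all genes, the 100 brightest 21.3% and the 1000 brightest 69.9%. Replicates 1, 2 and 3 had 8837, 8771 and 8835 genes above their own background, and Pearson's r across genes was 0.993 to 0.994 between arrays (genes are not independent replicates). The median SD over the 3 arrays was 0.26 for genes above background with a mean of 6 to 8, and 0.071 for those above 16, so bright genes were measured more tightly. Replicate 1 had the dimmest background probes, with a median of 4.99 against 5.41 and 5.43, and its part in the 323 genes that passed on 1 array alone was not tested. With 3 arrays, their number limits the precision.

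The brightest gene was Ccl3, which encodes macrophage inflammatory protein 1 alpha, a chemokine that draws monocytes and other leukocytes. Its probe set (TC1100003401.mm.2) read 18.70, 18.80 and 18.83 on replicates 1, 2 and 3, with a mean of 18.78 and an SD of 0.066, which is 12.54 log2 units over the background probe. Eef1a1, the elongation factor that brings aminoacyl-tRNA to the ribosome, read 18.42, 18.46 and 18.43. Slc15a3, a lysosomal carrier of histidine and small peptides, read 18.23, 18.47 and 18.42. Ccl3 lay above both on every array, while the order of Eef1a1 and Slc15a3 differed between arrays. Actb, the cytoskeletal actin gene, read 18.36, 18.24 and 18.36, and Fth1, the heavy chain of the iron store ferritin, read 18.34, 18.01 and 18.20. Next came Ccl9 and Cxcl10, both chemokines, at means of 17.96 and 17.78. They were followed by the endoplasmic reticulum chaperone gene Hspa5 at 17.77, the chemokine gene Ccl5 at 17.76 and the actin-bundling gene Lcp1 at 17.76, which did not differ beyond their spread. The myeloid transcription factor gene Spi1, which encodes PU.1, stood at 17.69 and was the brightest gene of a transcription factor among the 30.

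Inflammatory, myeloid and housekeeping genes shared the next places. The lysosomal growth factor precursor Grn (17.69), the ubiquitin ligase gene Arel1 (17.61), the membrane protein gene Ly6e (17.60) and Cybb, the catalytic subunit of the phagocyte oxidase (17.59), came first. The ferritin light chain Ftl1 stood at 17.55, the interferon-inducible gene Ifi211 at 17.55, the poly(A)-binding protein gene Pabpc1 at 17.54, and Clec4e, the receptor Mincle for mycobacterial glycolipid, at 17.52. The acute phase gene Saa3 (17.50), the MHC class I light chain B2m (17.48), Ifi207 (17.48), the siderophore-binding lipocalin Lcn2 (17.45) and the lysosomal protease Ctsb (17.45) followed. Rps23 of the small ribosomal subunit stood at 17.44, the inhibitory Fc receptor gene Fcgr2b at 17.43, the pyruvate kinase gene Pkm at 17.41 and Acod1, which makes itaconate, at 17.38. The actin-binding profilin gene Pfn1 (17.35) and the lysosomal membrane gene Lamp2 (17.32) closed the 30. Signals of Ifi211 and Ifi207 may be mixed, since these genes are related copies, and so may those of Actb and other actin genes. The muscle actin genes described below were not above background, however. From Hspa5 at 17.77 to Lamp2 at 17.32 most neighbours in this order did not differ beyond their spread.

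**Figure D2:**
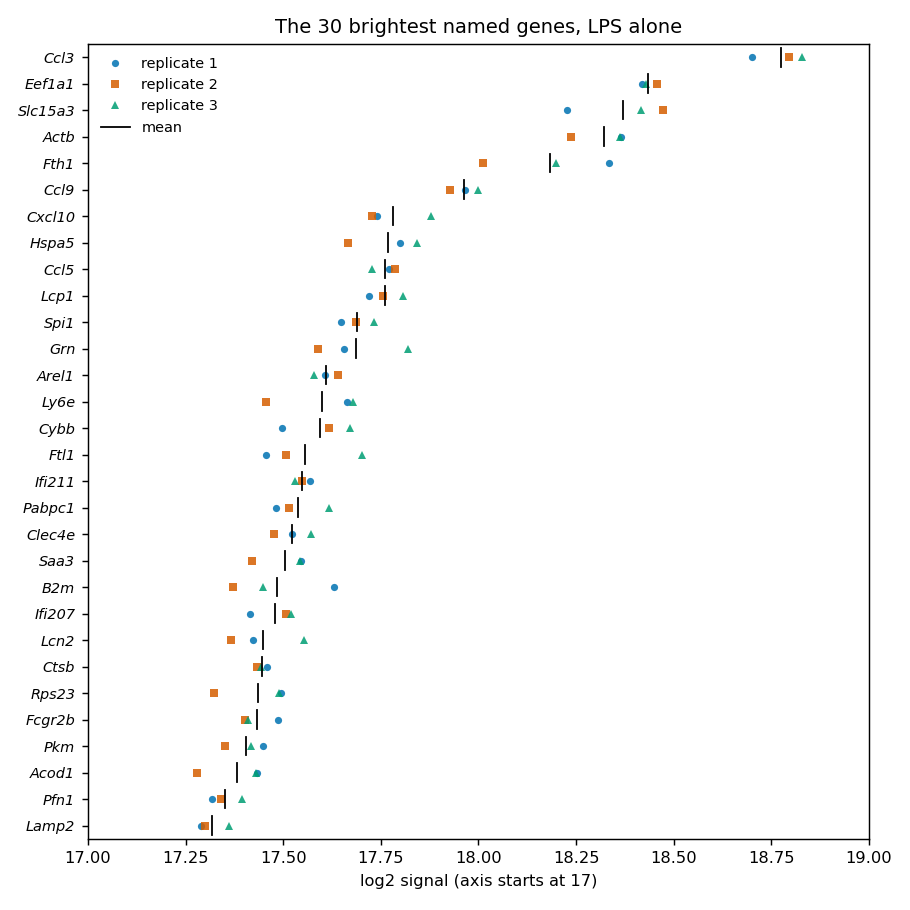
Log2 signal of the 30 brightest named genes on each of the 3 arrays (symbols) with the mean (black bar); the axis starts at 17. Ccl3 stands alone at 18.70 to 18.83, 4 other genes have means above 18, and from Cxcl10 downwards the arrays of neighbouring genes overlap.

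Genes of LPS recognition were above background in most cases. Of the 22 Toll-like receptors, co-receptors and adaptors, 18 (81.8%) were above background against 43.7% of all genes, with a median signal of 11.90 against 5.37. Cd14, the LPS co-receptor, read 15.83, 15.72 and 15.83. Ly96, which encodes MD-2, read 15.25, 15.22 and 15.30. Tlr4, the signalling LPS receptor itself, read 11.66, 11.97 and 11.65. All 3 parts of the LPS receptor complex were thus above background on every array. The brightest members were Tlr3, the receptor of double-stranded RNA, at 16.72, Tlr2, the receptor of bacterial lipopeptides, at 16.41, and Tlr7, the receptor of single-stranded RNA, at 16.15. The MD-1 gene Ly86 (15.51) and Cd180 (15.18), whose products form a complex of their own, were also bright. The adaptor genes Myd88, Tirap and Ticam1 stood at 15.01, 11.65 and 11.20, and the TRIF-linked adaptor gene Ticam2 was dimmer, at 8.03, and below the intron level on at least 1 array. Not above background were the flagellin receptor gene Tlr5 (3.53), the profilin receptor genes Tlr11 (2.58) and Tlr12 (2.91), and the adaptor gene Sarm1 (4.35).

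All 16 measured NF-kB, IkB and IkB kinase genes were above the intron level, with a median of 14.23. Rela, the p65 subunit, read 16.17, 16.33 and 16.40. Its inhibitors Nfkbib (15.90) and Nfkbia (15.73), the A20-binding inhibitor Tnip1 (15.71), the atypical IkB gene Nfkbiz (15.20) and the kinase gene Ikbke (15.03) were the next brightest. The dimmest was the kinase gene Ikbkb, at 9.24. Nfkb1 and Chuk were not analysed here.

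Among 8 measured interferon regulatory factors, 7 were above background. Irf7, the factor that drives interferon alpha genes, read 17.16, 16.91 and 17.34 and was the brightest of the list. Irf1 (14.14), Irf2 (12.79), Irf9 (12.61), Irf5 (12.13) and Irf3 (11.03) followed, and the lymphoid factor gene Irf4 was not above background (3.87). Of 6 STAT genes, Stat2, which pairs with IRF9 behind the type I interferon receptor, was brightest at 15.11. Stat3 (13.66), Stat6 (12.56), Stat5a (9.79) and Stat5b (8.48) were also above background, and Stat4 was not (3.39). In the SOCS family of cytokine signalling inhibitors 7 of 8 were above background. Socs3 read 13.42, 13.52 and 13.58, Socs7 and Socs1 stood at 9.82 and 9.76, Socs4 at 8.78, and Socs5 was not above background (4.59). Cish (7.80) was above the background probes and below the intron level. Socs6 varied from 8.18 to 9.75 between arrays.

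The AP-1 and immediate early genes were split, with 17 of 26 (65.4%) above background, against 43.7% of all genes. Atf3, a repressor of inflammatory genes, read 15.15, 15.21 and 15.18. Batf2 (14.41), Junb (14.25), Ier3 (14.11), Jund (12.65) and Jun (11.73) followed. Fosb (4.44), Batf (4.33), Batf3 (4.38), Maff (5.11), Egr2 (5.73) and Egr3 (5.20) were not above background.

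Chemokine signals covered nearly the whole scale. Of 21 CC chemokine genes 13 (61.9%) were above background and 9 above the intron level, and of 17 CXC and other chemokine genes 8 (47.1%) and 7, against 43.7% and 35.6% of all genes. After Ccl3, Ccl9, a ligand of the receptor CCR1, read 17.97, 17.93 and 18.00. The T cell and monocyte attractant Ccl5 read 17.77, 17.79 and 17.73. Ccl2, the main monocyte attractant, read 17.06, 17.24 and 17.17. Ccl4, the macrophage inflammatory protein 1 beta gene, followed at 16.18 and Ccl12 at 15.33. Among the CC genes not above background were the eosinophil attractants Ccl11 (5.03), Ccl24 (4.29) and Ccl26 (4.25), the lymph node chemokines Ccl19 (2.75) and Ccl21a (5.15), and Ccl1 (3.76).

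In the CXC group, Cxcl10, which attracts activated T cells, read 17.74, 17.73 and 17.88. The neutrophil attractant Cxcl2 read 17.09, 16.89 and 17.00. Cxcl1, a neutrophil attractant of the same receptor, read 5.42, 4.89 and 5.42 and was not above background on any array. Cxcl3, the third of these neighbouring attractants, read 8.74, 7.02 and 6.41, the largest SD (1.21) of any gene above background. So Cxcl2 was far above background on all arrays, Cxcl3 near it on 2 of them, and Cxcl1 below it throughout. Cxcl16, the ligand of CXCR6, stood at 16.03, the platelet factor gene Pf4 at 15.43, and the T cell attractants Cxcl11 and Cxcl9 at 15.26 and 11.65. Ppbp was above background on replicate 1 alone (6.57, against 5.57 and 5.65). Cxcl5 (4.71), Cxcl12 (3.87), Cxcl14 (4.62), Cxcl15 (3.58) and Cxcl17 (3.35) were not above background. 

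**Figure D3:**
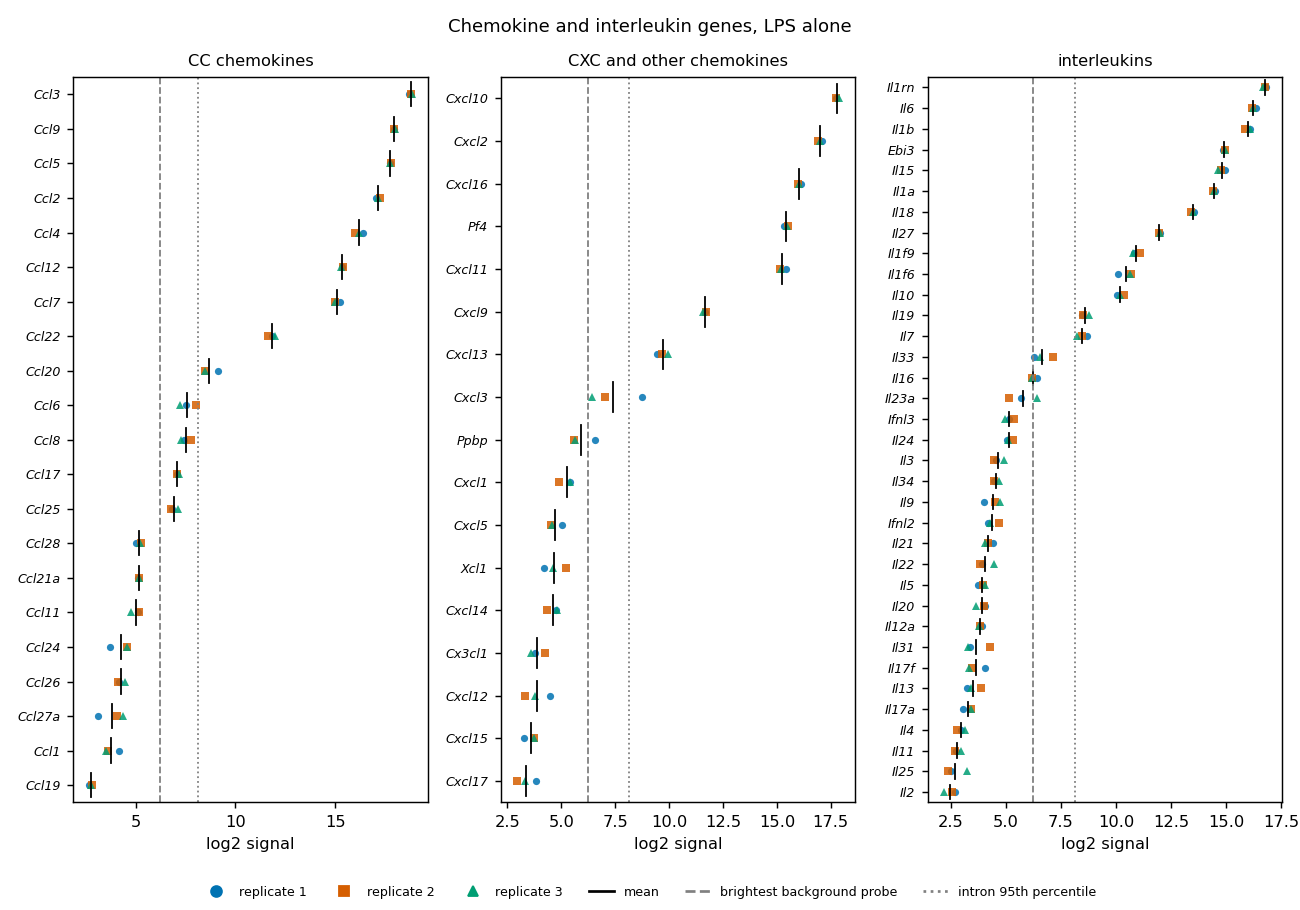
Log2 signals of the measured chemokine and interleukin genes on each of the 3 arrays (symbols) with the mean (black bar), ordered by mean; dashed, brightest background probe; dotted, intron 95th percentile. In each panel a bright group, led by Ccl3, Cxcl10 and Il1rn, is followed by a long tail below the dashed line that holds Cxcl1, Il4 and Il2.

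The promoters of Cxcl2 and Cxcl1 are shown because both genes lie on the same chromosome and hold the same 10 letters, while their signals lay on either side of background, and those of Il6 and Tnf because they are the bright cytokine genes described next. Each run is the 250 bases before the RefSeq transcription start in build GRCm38.p6, 5′ to 3′ on the gene's strand. Capitals mark GGGANTTTCC, a form of the NF-kB site, in the first 3 runs, and TATAAA, the TATA box, in the run of Tnf. The windows are chr5:90903649-90903898 (plus strand) for Cxcl2, chr5:90890995-90891244 (plus) for Cxcl1, chr5:30012864-30013113 (plus) for Il6 and chr17:35202008-35202257 (minus) for Tnf.
Cxcl2: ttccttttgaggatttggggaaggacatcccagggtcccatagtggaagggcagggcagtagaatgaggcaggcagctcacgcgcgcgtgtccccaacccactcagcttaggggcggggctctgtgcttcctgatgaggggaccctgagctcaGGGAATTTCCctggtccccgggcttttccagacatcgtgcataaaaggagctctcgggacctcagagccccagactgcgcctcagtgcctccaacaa
Cxcl1: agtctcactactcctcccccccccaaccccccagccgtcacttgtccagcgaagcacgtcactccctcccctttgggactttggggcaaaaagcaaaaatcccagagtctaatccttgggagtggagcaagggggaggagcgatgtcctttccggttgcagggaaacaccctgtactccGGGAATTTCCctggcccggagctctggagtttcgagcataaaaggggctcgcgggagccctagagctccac
Il6: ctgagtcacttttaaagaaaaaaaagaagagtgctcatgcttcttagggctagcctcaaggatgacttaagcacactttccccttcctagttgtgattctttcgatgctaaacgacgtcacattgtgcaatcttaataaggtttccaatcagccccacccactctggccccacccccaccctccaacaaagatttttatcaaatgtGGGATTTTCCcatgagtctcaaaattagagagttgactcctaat
Tnf: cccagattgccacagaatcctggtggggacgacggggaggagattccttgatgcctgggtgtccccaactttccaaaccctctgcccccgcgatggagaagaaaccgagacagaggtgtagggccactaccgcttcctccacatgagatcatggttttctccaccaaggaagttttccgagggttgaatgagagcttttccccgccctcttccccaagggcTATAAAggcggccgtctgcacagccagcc
The marked run began 97 bases before the start in Cxcl2, 71 in Cxcl1 and 44 in Il6, and the TATA box began 29 bases before the start of Tnf. Searched on both strands in windows from 250 bases before to 50 after the start, GGGANTTTCC was found in 81 of 19143 windows of all measured genes (0.423%). It was in 3 of 106 windows of the 100 brightest genes (2.83%), in 2 of 16 windows of chemokine genes above background (12.5%) and in 1 of 13 of chemokine genes not above background (7.69%). TATAAA was in 12.3% of all windows, 23.6% of those of the 100 brightest genes, 43.8% of those of chemokine genes above background and 15.4% of those of chemokine genes not above background. A match is a description of letters and not a measured site.

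Of 35 measured interleukin genes and relatives, 14 (40.0%) were above background, close to the 43.7% of all genes, with 2 mixed. Il1rn, the gene of the natural blocker of the interleukin-1 receptor, was the brightest and read 16.83, 16.76 and 16.68. Il6, the fever and acute phase cytokine, read 16.36, 16.16 and 16.20. Il1b, a main product of activated macrophages, read 16.08, 15.87 and 16.07. These 3 were followed by Ebi3 (14.92), a subunit of interleukin-27, by Il15 (14.79), which sustains NK and memory T cells, and by Il1a (14.45). The anti-inflammatory Il10 stood lower, at 10.06, 10.35 and 10.18, and was still above the intron level. Il23a was above background on replicate 3 alone (5.72, 5.15 and 6.44) and Il16 on replicate 1 alone (6.40, 6.17 and 6.18). The T cell cytokines Il2 (2.49), Il4 (2.97), Il5 (3.93) and Il9 (4.43) were not above background, nor were Il3 (4.65) and Il11 (2.80), and Il12b was not analysed here.

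Tnf, the gene of tumour necrosis factor, read 17.24, 17.36 and 17.29 and led its family. Of the 15 measured ligands 5 (33.3%) were above background, against 43.7% of all genes. Tnfsf10, the death ligand TRAIL, stood at 15.17, Tnfsf15 at 12.51, the costimulatory ligand gene Tnfsf9 at 10.80 and lymphotoxin beta (Ltb) at 7.35. Tnfsf14 was above background on 2 arrays and Tnfsf13b, the B cell survival factor BAFF, on 1. Lymphotoxin alpha (Lta, 5.54), Tnfsf4 (5.16), Cd40lg (5.08), Tnfsf8 (3.88), Cd70 (3.05) and Fasl (2.23), ligands known from lymphocytes, were not above background.

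Growth factor genes were above background in 13 of 20 cases. Csf1, the macrophage colony-stimulating factor, read 16.65, 16.70 and 16.56. Its receptor gene Csf1r read 15.55, 15.66 and 15.69. Both the ligand and the receptor of this survival pathway were thus bright on all arrays. Igf1 (15.95), Tgfb1 (14.93), Pdgfb (12.59), Osm (12.22) and the stem cell factor gene Kitl (11.07) followed. Vegfa varied from 6.69 on replicate 2 to 8.75 on replicate 3. Tgfb2 (4.96), Tgfb3 (5.57), Hgf (5.07), Hbegf (3.71) and Ereg (3.82) were not above background, Lif passed on 2 arrays and Vegfc on 1.

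No interferon gene was above background on all 3 arrays, while nearly every antiviral gene was. Ifnb1, the interferon beta gene, read 4.08, 4.85 and 4.77. Of the other 15 measured interferon genes, Ifna5 passed on replicate 1 alone (6.33, 5.89 and 6.05) and the rest read between 3.09 (Ifna4) and 5.77 (Ifna7). Probe sets of the interferon alpha genes may share signal, since these genes are near-identical copies. In contrast, 29 of 30 measured antiviral interferon-stimulated genes (96.7%) and 14 of 14 interferon-inducible GTPase genes were above background and above the intron level, with medians of 14.74 and 15.35.

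The brightest antiviral genes were Cmpk2, a mitochondrial nucleotide kinase, which read 17.25, 17.11 and 17.30, and Usp18, which removes ISG15 from proteins, which read 17.34, 17.18 and 17.14. Ifitm3, a blocker of virus entry, stood at 17.17, Ifit3 at 16.79, Rsad2, which encodes viperin, at 16.78 and Samhd1, which breaks down dNTPs, at 16.77. Ifit1, which binds foreign RNA caps, read 16.19, 16.19 and 16.12. The dimmest member, Ifitm1, was above background on 2 arrays (7.20, 6.45 and 6.19). Among the GTPases, which act on the vacuoles of intracellular microbes and on viruses, Gbp3 read 16.72, 16.63 and 16.75, followed by Gbp2 (16.41), Gbp7 (16.38), Mx1 (15.69), Mx2 (15.67) and Gvin1 (15.53). Gbp8 was the dimmest of them at 10.57. Members of the Ifitm, Oas1, Gbp and Mx families are near copies, and their signals may be mixed.

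The promoters of Ifit1 and Cxcl10 are shown because they carry the letters of the interferon-stimulated response element (ISRE), GAAANNGAAA, marked in capitals (TTTCNNTTTC where it reads on the other strand), under bright interferon-inducible genes. Both are the 250 bases before the RefSeq start, 5′ to 3′ on the gene's strand, in GRCm38.p6, at chr19:34640639-34640888 (plus) for Ifit1 and chr5:92348890-92349139 (minus) for Cxcl10.
Ifit1: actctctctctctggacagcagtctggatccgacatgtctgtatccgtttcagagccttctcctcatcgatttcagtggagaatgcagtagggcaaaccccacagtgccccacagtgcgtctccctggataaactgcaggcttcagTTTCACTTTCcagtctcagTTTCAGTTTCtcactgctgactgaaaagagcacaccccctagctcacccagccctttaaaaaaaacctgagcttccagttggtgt
Cxcl10: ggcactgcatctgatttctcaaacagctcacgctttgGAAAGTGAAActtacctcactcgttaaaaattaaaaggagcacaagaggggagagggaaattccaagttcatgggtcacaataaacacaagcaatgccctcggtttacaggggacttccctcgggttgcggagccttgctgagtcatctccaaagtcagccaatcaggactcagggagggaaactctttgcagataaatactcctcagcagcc
Ifit1 held 2 such runs, beginning 104 and 85 bases before the start, and Cxcl10 held 1, beginning 213 bases before it. In windows from 250 bases before to 50 after the start, on both strands, the letters were found in 642 of 19143 windows of all measured genes (3.35%) and in 14 of 106 windows of the 100 brightest genes (13.2%). They were in 26 of 40 windows (65%) of the antiviral and GTPase genes, covering 24 of the 33 genes with a window. The 9 genes without a match, such as Cmpk2, Samhd1 and Ifitm1, had a median signal of 14.80, against 15.32 for the 24 with a match. The ISRE on the reverse strand and the NF-kB run share the letters TTTC and can overlap, though they did not in the runs shown.

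Of 26 sensors of the cytosol and the inflammasome, 18 were above background. Ifih1, which encodes the RNA sensor MDA5, read 16.41, 16.52 and 16.51. Ddx58, which encodes the RNA sensor RIG-I, read 15.63, 15.82 and 15.91. Casp1 and Casp4, the inflammatory caspases, stood at 16.44 and 15.49, Nlrp3 at 14.96 and the RNA sensor regulator gene Dhx58 at 14.79. Pycard, the adaptor ASC that links NLRP3 to caspase 1, was dimmer and read 9.17, 9.00 and 9.14. It was above the intron level on every array. The sensor gene Nlrc4 (6.10), which serves the flagellin receptors of the Naip family, was not above background, nor were Nlrp1a (2.44), Nlrp6 (4.28), Nlrp10 (3.50), Nlrp12 (2.93) and Nlrc3 (4.62). Nod1, a sensor of peptidoglycan, passed on 2 arrays (6.08, 6.35 and 6.91).

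The enzymes of nitric oxide, oxygen radicals and itaconate were bright, with 13 of 17 above the intron level and a median of 15.26. Cybb read 17.50, 17.62 and 17.67. Acod1 read 17.43, 17.28 and 17.43. Nos2, the inducible nitric oxide synthase, read 16.34, 16.56 and 16.78. The smallest margin of Nos2 over the background probe on any array was 10.18 log2 units, so all 3 enzymes were far above background. The mitochondrial superoxide dismutase gene Sod2 stood at 17.01, and the oxidase partners Rac2, Ncf1 and Ncf4 at 15.96, 15.96 and 15.94. The neuronal and endothelial synthases Nos1 (4.28) and Nos3 (3.10) and both arginase genes, Arg1 (4.20, 4.30 and 4.24) and Arg2 (3.99), were not above background.

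In the prostaglandin and leukotriene list 14 of 25 (56%) were above background, against 43.7% of all genes. Ptgs2, the inducible cyclooxygenase COX-2, read 17.24, 17.18 and 17.21. Pla2g4a, which frees arachidonic acid, stood at 14.79. The other members were dimmer, among them Alox5ap (12.27), Pla2g7 (11.63), the prostacyclin receptor gene Ptgir (11.38) and Ptges3 (11.27). The 5-lipoxygenase gene Alox5 (5.96, 7.04 and 6.80), the thromboxane synthase gene Tbxas1 and the receptor gene Ptger1 each passed on 2 arrays. The synthases Ptgis (5.37), Ptgds (3.10) and Ltc4s (4.50) and the lipoxygenases Alox12 (3.75) and Alox15 (3.84) were not above background, nor was Pla2g2d (5.17).

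Lysosomal genes stood high. Of 17 cathepsins, lysozymes and cystatins 13 were above background, with a median of 14.57. Ctsb read 17.46, 17.43 and 17.44. Ctsz (17.25), Ctsc (16.94), the macrophage lysozyme gene Lyz2 (16.28), Ctsa (16.26) and the protease inhibitor Cst3 (15.58) followed. Not above background were Ctsg, known from neutrophils (3.83), Ctsk, known from osteoclasts (5.57), Ctsw, known from cytotoxic lymphocytes (4.26), and Ctsf (3.99). Only 6 of 22 matrix metalloproteinases and their inhibitors (27.3%) were above background. Mmp12, the macrophage elastase, read 16.77, 16.78 and 16.69. Mmp13 (15.35) and Mmp9 (14.82) were next, then the inhibitor Timp2 (12.57), Mmp25 (9.96) and Mmp10 (7.63). Mmp19 passed on replicate 1 alone, and Mmp1a, Mmp2, Mmp3, Mmp7, Mmp8 and Mmp11 read 3.18 to 4.85.

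Of 19 complement components and receptors 8 (42.1%) were above background, close to the 43.7% of all genes. The anaphylatoxin receptor gene C3ar1 read 17.14, 17.09 and 17.07, and the alternative pathway stabiliser gene Cfp, for properdin, stood at 15.63. The chains of C1q (C1qb 14.84, C1qc 12.86), C5ar1 (14.02) and the protease gene C1ra (12.84) followed, while C1s1 (5.91), C2 (5.55), C4b (3.83) and the terminal components Hc (3.04), C6 (3.59) and C7 (4.06) were not above background. Cd55, which protects cells from complement, passed on replicate 3 alone. In the S100 family of calcium-binding proteins 5 of 16 (31.2%) were above background, against the same 43.7%. S100a11 (14.59), S100a10 (13.92), S100a6 (13.37) and S100a4 (11.88) were bright and S100a13 dim (7.19). S100a8 (4.99, 3.48 and 3.77) and S100a9 (4.59, 4.62 and 3.83), which form calprotectin, were not above background.

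Chemokine receptors stood in contrast to the chemokines, with 4 of 22 (18.2%) above background and a median of 3.62. Ccrl2, an atypical receptor that does not signal through G proteins, read 15.91, 15.87 and 15.89. The other 3 were dim and below the intron level, namely the homing receptor gene Ccr7 (7.26), Cxcr4 (7.22) and the CCL2 receptor gene Ccr2 (7.02). Ccr1, a receptor of CCL3 and CCL5, read 3.10, 2.98 and 3.01 and was not above background. Ccr3, Ccr4, Ccr6, Ccr8 and Ccr10 read 2.30 to 3.84, and Ccr9 passed on 1 array.

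Cytokine receptors were above background in 21 of 30 cases (70.0%). After Csf1r came the GM-CSF receptor chain Csf2ra (14.63), the interferon receptor chains Ifnar2 (14.54) and Ifngr2 (13.47), and the interleukin-10 receptor chains Il10ra (13.36) and Il10rb (12.88). The signalling interleukin-1 receptor gene Il1r1 (4.47) was not above background and the decoy Il1r2 passed on 1 array. Il2rb (2.70), Il12rb1 (5.04), Il17ra (4.39), Il18r1 (3.79) and Il27ra (2.44), which encode chains of interleukin receptors, were not above background, and Il2ra passed on 2 arrays. In the TNF receptor family 12 of 21 (57.1%) were above background, against 43.7% of all genes. Tnfrsf1b, the second TNF receptor, read 16.68, 16.84 and 16.87. Cd40 (15.91), Tnfrsf1a (13.49), Ltbr (12.67), Tnfrsf9 (12.06) and Fas (11.73) followed, while the B cell receptors Tnfrsf13c (4.31) and Tnfrsf17 (3.84) were not above background, nor were Tnfrsf4 (3.08), Tnfrsf8 (4.40), Tnfrsf10b (3.42) and the RANKL decoy Tnfrsf11b (4.25).

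Receptors of antibody were bright for IgG. Fcgr2b read 17.49, 17.40 and 17.41. The shared signalling chain gene Fcer1g read 17.06, 17.20 and 17.14. The activating receptors Fcgr1, Fcgr3 and Fcgr4 stood at 16.37, 15.60 and 14.84, and the neonatal receptor gene Fcgrt at 9.85. The IgE receptor chains Fcer1a (3.61) and Fcer2a (4.63) were not above background, nor were the IgM and IgA receptors Fcamr (4.85) and Pigr (4.19) or Fcrls (4.31).

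Of 16 scavenger receptors 8 (50%) were above background, near the 43.7% of all genes. Msr1, which takes up modified lipoprotein, led the list at 15.80, 15.42 and 15.63. Colec12 (13.72), Marco (13.16), Scarb1 (11.31), Lrp1 (11.07) and Scarb2 (10.88) followed. Stab1 varied from 6.84 to 8.50. The lipid receptor gene Cd36 (4.28, 3.75 and 4.05) and the haemoglobin receptor gene Cd163 (4.31) were not above background, nor were Scara3 (4.29), Scara5 (3.29), Scarf1 (4.56) and Stab2 (2.52).

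C-type lectin receptors were above background in 13 of 25 cases (52%), near the 43.7% of all genes. Clec4e read 17.52, 17.48 and 17.57, and its partner Clec4d stood at 15.72. The activation marker Cd69 (15.16), Clec4a1 (14.58), the inhibitory receptor gene Clec12a (14.14) and Clec5a (12.88) followed. Mrc1, the mannose receptor, read 3.86, 4.37 and 4.36 and was not above background. Among 9 sialic acid binding lectins, Siglec1 (10.68), Siglece (8.84) and Cd33 (7.80) were above background (33.3%, against 43.7% of all genes). Cd22, Mag, Siglecf, Siglecg, Siglech and Siglec15 read 3.41 to 4.53.

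Integrin genes were above background for 7 of 16 alpha chains (43.8%) and 3 of 9 beta chains (33.3%), against 43.7% of all genes. Itgam, the CD11b chain of complement receptor 3, read 14.81, 14.82 and 14.90, and its beta 2 partner Itgb2 read 13.62, 13.42 and 13.59. The fibronectin receptor chains Itga5 (14.46), Itga4 (13.60) and Itgb1 (15.29), Itgal of LFA-1 (12.73), Itgav (10.88), Itga9 (9.52) and Itgb5 (9.13) were also above background. Itga2, Itga2b, Itga3, Itga7, Itga8 and Itga11 read 3.37 to 5.04, and Itgb2l, Itgb3, Itgb4, Itgb6 and Itgb8 read 4.27 to 5.37. Itgb7 passed on replicate 3 alone.

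Antigen presentation was split by class. For MHC class I, 14 of 15 genes (93.3%) were above background, with a median of 13.80. B2m read 17.63, 17.37 and 17.45. The loading factors Tapbp (16.51) and Tap1 (16.23), the immunoproteasome genes Psmb8 (15.47) and Psmb10 (14.86) and the heavy chain H2-K1 (15.41) followed, and Cd1d1 passed on 2 arrays. For MHC class II, 2 of 11 genes were above background, Ctss, the protease that trims the invariant chain, at 15.14 and H2-Oa at 6.76. The chains H2-Ab1 (5.85, 5.75 and 5.72), H2-Aa (4.72), H2-Eb1 (3.52) and H2-Eb2 (3.66) and the loading factors H2-DMa (4.92) and H2-DMb1 (5.75) were not above background. Ciita, the gene of the class II transactivator, read 4.88, 5.86 and 5.98 and was not above background either. Thus the class I pathway was measured and the class II chains and their activator were not above background. MHC heavy chain probe sets may read several near-identical genes.

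Of 22 ligands that stimulate or restrain T cells and phagocytes, 15 were above background. Lgals9 (16.15), Cd40, Icosl (15.77), the PD-1 ligand gene Cd274 (15.59), Sirpa (15.44) and the "don't eat me" signal gene Cd47 (15.34) were brightest. Cd86, a B7 ligand of CD28, read 13.13, 13.27 and 13.08. The other B7 ligand gene, Cd80, read 10.43, 11.29 and 11.04 and was also above the intron level. The other PD-1 ligand, Pdcd1lg2, was not above background (3.96), nor were Vtcn1 (4.25), Cd200 (4.20), Cd24a (3.81), Cd48 (4.25) and Cd244a (5.29). Cd276 passed on replicate 3 alone.

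Lineage markers are described next, in lists chosen with earlier results of these data known, so they are no independent check of the label. Of 35 measured macrophage markers 29 (82.9%) were above background, against 43.7% of all genes. Above the intron level were 28, and the median of the list was 13.93. Spi1 read 17.65, 17.69 and 17.73. The pore-forming gene Mpeg1 read 16.36, 16.27 and 16.72, and the lysosomal membrane gene Laptm5 (16.67) and the galectin gene Lgals3 (16.30) were also among the brightest. Adgre1, which encodes the macrophage surface marker F4/80, read 13.91, 14.16 and 14.06. Those not above background were Cebpa (5.18), Cd200r1 (3.90), Cd36, Mrc1, Cx3cr1 (5.11) and Cd63 (4.97). Cd36, Mrc1, Cx3cr1 and Cd200r1 are surface receptors of particular macrophage or monocyte states, and Cebpa encodes a factor of myeloid progenitors. Whether cell state has a part in these low signals was not tested, nor was whether the probe sets respond. Cd68 was not analysed here.

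Over all other lineages 22 of 135 markers (16.3%) were above background, against 43.7% of all genes, and 13 were above the intron level. The median of the 135 was 3.93 against 5.37 for all genes. B cell markers were above background in 0 of 14 cases, with Ebf1 highest at 4.72, and Ms4a1, Cd79a, Cd79b and Pax5 read 3.19 to 4.00. Of 18 T and NK cell markers 1, Cd5 (7.77), was above background, below the intron level, and Cd247 passed on 1 array, while Cd3d, Cd3e, Cd3g, Cd8a and Cd8b1 read 3.25 to 4.26. Among 15 neutrophil markers 3 were above background, namely Lcn2 (17.42, 17.37 and 17.55), the G-CSF receptor gene Csf3r (12.13) and the granule factor Cebpe (9.38). The granule genes Elane (2.88), Mpo (2.97), Prtn3 (3.36), Camp (3.39) and Ltf (2.80) were not above background. Of 11 mast cell and basophil markers 1, the histamine-forming enzyme Hdc, was above background, at 12.22, 12.68 and 12.31, while Kit (4.47), Cpa3 (4.84) and the mast cell proteases were not. Pf4 read 15.33, 15.50 and 15.47 and was the only 1 of 9 erythroid and megakaryocyte markers above background, with Gata1 at 5.20 and Itga2b at 5.04.

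Of 16 dendritic cell markers 4 (25%) were above background, against 43.7% of all genes. Bst2, also an antiviral gene, stood at 14.68 and the chemokine gene Ccl22 at 11.83, while Ccr7 and Ccl17 (7.09) lay below the intron level. Cd83 passed on replicate 1 alone, and Flt3 (2.54), Zbtb46 (3.40), Itgax (4.49), Xcr1 (3.42) and Clec9a (2.83) were not above background. RAW 264.7 cells can become osteoclasts when given RANKL. Of 15 osteoclast markers 7 were above background (46.7%, close to the 43.7% of all genes). These were the proton pump subunit Tcirg1 (15.94), Mmp9, the transcription factor genes Mitf (13.51) and Nfatc1 (8.16), the chloride channel gene Clcn7 (13.49), the carbonic anhydrase gene Car2 (12.29) and the RANK gene Tnfrsf11a (11.07). Among the members of this list not above background were Acp5 (3.90, 3.09 and 2.83) and Ctsk (5.96, 5.59 and 5.16). Calcr (3.43), Ocstamp (3.59), Dcstamp (4.89) and Atp6v0d2 (3.27) were not above background either.

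Markers of cells outside the blood were dim throughout. Of 19 fibroblast, endothelial and epithelial markers, Dcn (7.31), Cdh5 (7.16) and Pecam1 (7.11) were above background and Acta2 passed on 2 arrays, and none was above the intron level. Of 19 neuron, muscle, liver and germ cell markers, Ckm (7.98) and Map2 (7.63) were above background, and each passed the intron level on 1 array. Among 7 measured genes of sex chromosomes, Sry read 6.50, 6.77 and 6.99. The other Y genes of that list, Eif2s3y (3.03), Kdm5d (3.12), Uty (2.90), Zfy1 (2.69), Zfy2 (2.83) and Usp9y (3.41), were not above background. The line is known to derive from a male mouse, and of 32 measured genes on chromosome Y, Sry and Gm20736 (6.65) were above background, 6.25% against 43.7% of all genes. Both lay below the intron level on every array, and the other probe set of Gm20736 was not above background on all 3. Xist, Tsix and Ddx3y were not analysed here.

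**Figure D4:**
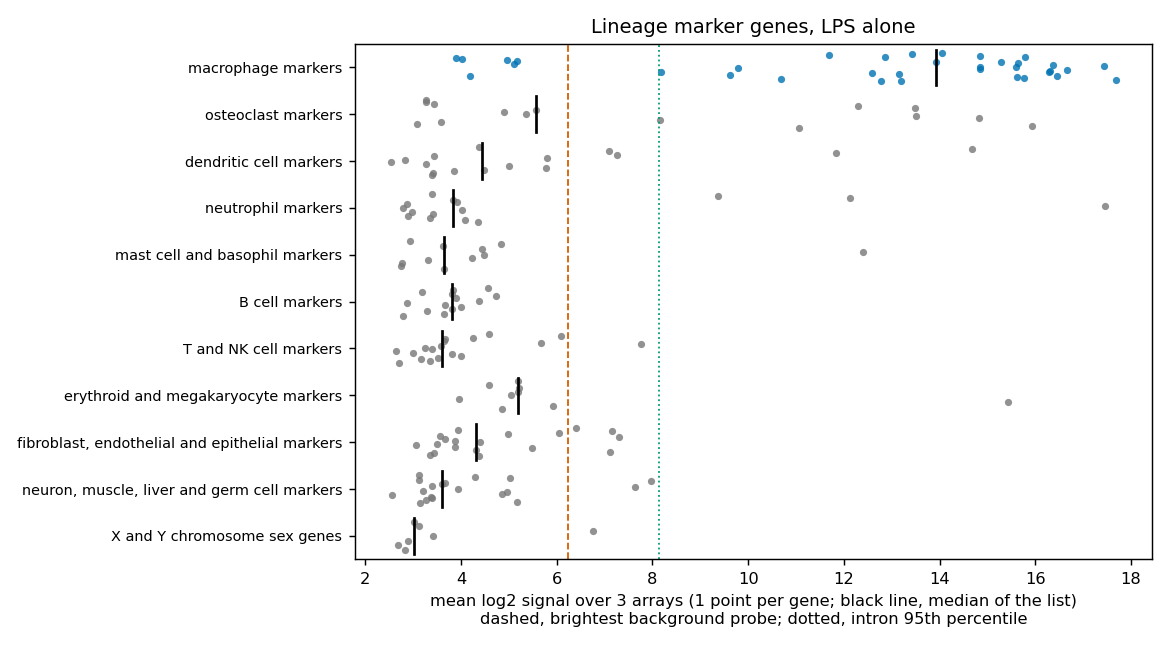
Mean log2 signal over the 3 arrays of each marker gene (points) in 11 lineage lists, with the list's median (black line), the brightest background probe (dashed) and the intron 95th percentile (dotted). The macrophage list has its median at 13.93, right of both levels, and each other list has its median left of the dashed line, with single bright genes such as Lcn2, Pf4 and Hdc.

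The cell division list held genes that promote division and genes that inhibit it. Of its 33 measured members 27 (81.8%) were above background, against 43.7% of all genes. Their median was 11.45, against 5.37 for all genes. Cdkn1a, the inhibitor p21, was the brightest and read 16.56, 16.68 and 16.71. The replication clamp gene Pcna read 15.54, 15.52 and 15.49, and the proliferation marker Mki67 read 14.28, 14.19 and 14.70. Thus an inhibitor and markers of proliferation were all bright in the same arrays. The cyclin-dependent kinases Cdk6 (14.37) and Cdk4 (14.17) and the helicase subunit Mcm6 (13.46) followed. Cdkn2a, which encodes p16 and p19Arf, read 3.00, 3.19 and 3.68 and was not above background, nor were Cdkn2b (5.23), Cdkn2c (4.52), Cdkn1c (4.11) and Ccna1 (3.29). Ccne2 varied from 5.72 to 7.72 and passed on 2 arrays.

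In the BCL2 family, which holds both survival and killer genes, 12 of 18 members were above background. Bcl2l1, which encodes BCL-XL, stood at 14.52 and Mcl1 at 14.31. The killer gene Bak1 was also above background on all 3 arrays. The copies Bcl2a1b, Bcl2a1a and Bcl2a1d stood at 13.26, 12.77 and 12.65 and cannot be taken as separate measurements. Bcl2l10, Bok, Bik, Bmf, Hrk and the p53 target Pmaip1 read 2.98 to 5.82. Of 8 caspase genes 6 were above background. Casp8, the caspase of death receptors, read 17.30, 17.28 and 17.34, and Casp2 stood at 11.51. Casp6 (7.46) and Casp9 (6.99) were below the intron level, Casp12 (4.20) and Casp14 (3.40) were not above background.

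In isoform families used in all cells, the probe sets of some paralogs read above background and those of others did not. Of 24 listed large subunit ribosomal protein genes 22 were above background, led by Rpl23 (16.75), and the listed members that were not were the muscle and testis copies Rpl3l (3.28) and Rpl10l (4.33). Over all 39 measured genes with the stem Rpl 36 were, led by Rpl15 (16.86). Of 24 listed small subunit genes 23 were, led by Rps23, with Rps4l (4.16) the exception. Ribosomal protein genes have many near-identical pseudogenes that probes may read. The elongation factor Eef1a1 was bright while its muscle and neuron form Eef1a2 read 4.71, 4.79 and 4.79, and Eif5a (17.29) was bright while Eif5a2 read 4.67. Of 24 actin, tubulin and related genes 15 were above background. The actin-severing gene Cfl1 (17.16), Tmsb4x (17.05), Tuba1c (16.83) and Tubb5 (15.99) were bright, and the muscle actins Acta1 (3.12), Actc1 (5.46) and Actg2 (3.75) and the tubulins Tubb1 (3.59) of platelets, Tubb3 (4.09) of neurons and Tuba8 (5.82) were not above background.

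Glycolytic genes followed the same pattern, with 20 of 29 above background. Pkm read 17.45, 17.35 and 17.42, and Gapdh (17.24), Aldoa (16.69), Pgk1 (15.96), the glucose transporter gene Slc2a1 (15.95) and Slc2a6 (15.64) followed. Lactate dehydrogenase was read from Ldha at 15.45, 15.16 and 15.50, and the heart form Ldhb read 4.00, 4.43 and 4.36. The A chain was thus far above background and the B chain below it on each array. The liver and muscle glucose transporters Slc2a2 (4.89) and Slc2a4 (5.00), the sperm forms Gapdhs (3.66) and Pgk2 (3.58) and the muscle form Pgam2 (4.47) were not above background. Eno3 and Pklr each passed on 1 array.

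Of 22 genes of iron storage and antioxidant defence 18 were above background, with a median of 13.69. Behind Fth1 and Ftl1 came the peroxiredoxin gene Prdx1 (17.21), Sod2, the catalase gene Cat and the glutathione peroxidase gene Gpx1 (16.87). The extracellular forms Gpx3 (3.32) and Sod3 (3.01) and the gut form Gpx2 (4.12) were not above background, and the iron hormone gene Hamp passed on 2 arrays. Chaperones were above background in 15 of 18 cases. The endoplasmic reticulum genes Hspa5 (17.80, 17.66 and 17.84), Calr (17.22) and Hsp90b1 (16.17) and the cytosolic Hsp90aa1 (16.51) were bright. The stress-inducible copies Hspa1a and Hspa1b stood at 6.62 and 6.69, near background, and Hspb1 (3.88), Hspa1l (3.28) and Hspb8 (3.14) were not above background.

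In the C/EBP and Kruppel-like families 15 of 23 were above background. Klf6 stood at 15.23, and Cebpb, the C/EBP factor of activated macrophages, read 13.55, 14.18 and 14.06. Klf7 (13.26), Klf13 (12.87), Cebpd (12.33) and Cebpg (12.28) followed. Cebpa read 4.71, 5.51 and 5.33, so Cebpb was above background on all arrays and Cebpa on none. Klf1, Klf5, Klf12, Klf14 and Klf15 read 2.82 to 4.55, and Klf11 passed on replicate 3 alone. Of 16 receptors of lipids and steroids 6 (37.5%) were above background, near the 43.7% of all genes. The brightest were Rarg (10.68), Rxrb (9.52), the glucocorticoid receptor gene Nr3c1 (8.93) and Rara (8.79). The LXR alpha gene Nr1h3 (7.83) and the vitamin D receptor gene Vdr (7.14) lay below the intron level. Pparg (4.40, 4.50 and 4.34), Ppara (3.47) and Rxra (5.33, 5.42 and 6.04) were not above background.

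Over all 56 lists, 563 of 976 measured genes were above background, 31 were mixed and 382 were not above background, and 100 further genes were not analysed here. The lists were chosen for macrophage biology, so their pooled share is not set against that of all genes. The lists with every measured member above background were the NF-kB and IkB proteins and the interferon-inducible GTPases, and those with none were the B cell markers and the interferons.

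**Figure D5:**
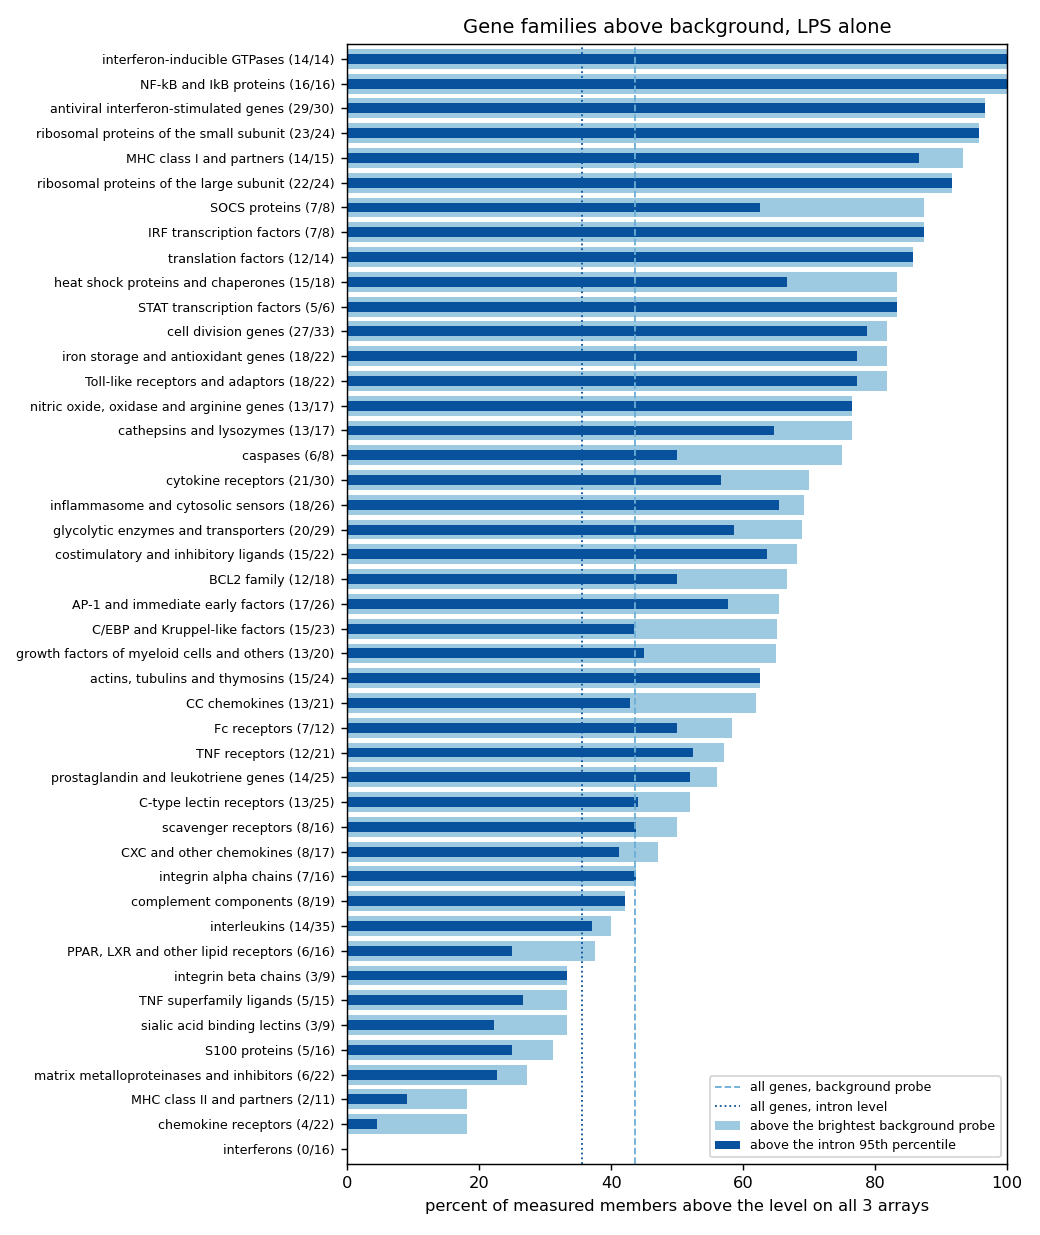
Percent of measured members above the brightest background probe (light bars) and above the intron 95th percentile (dark bars) on all 3 arrays for 45 gene lists, with the shares of all genes (dashed, 43.7%; dotted, 35.6%); numbers give members above background over members measured. Interferon-inducible GTPases and NF-kB proteins reach 100%, and MHC class II, chemokine receptors and interferons stand at the bottom with 18.2%, 18.2% and 0.

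Families defined by the stem of the gene symbol, with at least 20 measured members, showed the same division between cell maintenance and other tissues. Of 1081 olfactory receptor genes (Olfr) 2 (0.185%) were above background and 0 above the intron level. No member was above background among 49 keratin genes (Krt), 38 taste receptor genes (Tas), 24 kallikreins (Klk), 23 prolactin family genes (Prl), 22 alpha defensins (Defa) and 21 fibroblast growth factors (Fgf). The mitochondrial ribosome was covered almost whole, with 28 of 28 small subunit genes (Mrps) and 47 of 48 large subunit genes (Mrpl). Vacuolar sorting genes (Vps) were above background in 33 of 34 cases, Mediator genes (Med) in 27 of 28 and RNA polymerase subunits (Polr) in 24 of 25. Of 96 cytochrome P450 genes (Cyp) 5 were above background, the brightest being the sterol demethylase Cyp51 at 13.05, and of 42 collagen genes (Col) 1, Col16a1, which varied from 6.30 to 8.05. Large mixed families lay on both sides of the 43.7% of all genes, with 159 of 361 solute carriers (Slc, 44.0%), 208 of 358 zinc finger genes (Zfp, 58.1%), 49 of 75 RING finger genes (Rnf, 65.3%) and 43 of 130 coiled-coil domain genes (Ccdc, 33.1%) above background.

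Promoters of genes above and not above background differed in base composition, given here as a description over the RefSeq windows of 300 bases. Median GC content was 60.7% in 8942 windows of genes above background and 52.7% in 9586 windows of genes not above background, and the median observed over expected ratio of CpG was 0.781 against 0.318. The GC box GGGCGG, on both strands, was in 63.3% and 33.1% of the windows, and TATAAA in 7.2% and 17.4%, with 47.9% and 12.3% over all measured genes. The antiviral and GTPase genes, all above background except Ifitm1 (on 2 arrays), had a median CpG ratio of 0.264 and a GC content of 50.2%, and the chemokine genes above background 0.192 and 48%. Both groups thus had windows poorer in CpG than the median gene above background. This was not particular to them. The median ratio was 0.258 for macrophage markers above background and 0.39 for chemokine genes not above background. Windows of ribosomal protein genes above background had a median ratio of 0.861.

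The 10 genes above background that varied most over the 3 arrays were Cxcl3, Vegfa, Col16a1, Elavl4, Stab1, Klrk1, Kmt2d, G6pc3, Socs6 and Manbal, with SDs from 1.21 to 0.77. Elavl4, a neuronal RNA-binding protein gene, read 9.57, 8.96 and 7.79, and Kmt2d, a histone methyltransferase gene, read 8.79, 8.89 and 10.24. Their means, from 6.91 to 9.30, all lie in the dim range, and 212 genes above background had an SD over 0.5. Right above the background level by their smallest margin lay Krtap4-8, A130010J15Rik, Slc52a3, Clec1b and Gpr180, with margins of 0.00030 to 0.012. Right below it lay Isoc2a, Oscp1, Dhrs13, Muc1 and Trim3, each above background on the other 2 arrays. Genes on either side of the level had like signals, for example 6.36 on average in both Trim3 and Gpr180.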

How the data were processed

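Total RNA of RAW 264.7 cells was labelled with biotin and read on Affymetrix mouse arrays, per the labels' protocols. The authors deposited signals that were read here as log2, a base inferred from their range. Background correction, normalization and software were not given in the sources used here, so any compression of dim or bright signals by those steps is carried into the values. Nothing was normalized again. Of 28846 probe sets, 19572 have 1 gene symbol and 0 have several in the array's annotation, and all 19572 matched RefSeq annotation of GRCm38.p6 by gene number. For the 55 genes with several probe sets the one with the highest mean was taken, which left 19505 genes; in 4 of them (Gm20736, Pakap, Pemt and Syne1) the probe sets disagreed on whether the gene was above background.

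Genes were ranked by the mean of the 3 arrays, and values are means or single arrays with the sample SD (n = 3). No test was made, since 1 group is described. The counting code was run on simulated signals set well above or well below the background level. That check covers the code only and not the calls of genes near the level. Named genes are the 30 brightest leaving out predicted and small RNA genes, up to 6 of the brightest members of each list, the members not above background (the first 6 in list order where there are more than 5), every mixed member, the 10 most variable genes above background, and the 5 genes nearest to the level on each side. Outside that rule, Adgre1, Cd180, Cd80, Cd86, Ciita, Cyp51, Gbp8, Gm20736, Gpr84, Hspa1a, Hspa1b, Ifit1, Ikbkb, Il10, Ldha, Myd88, Ncf4, Nfatc1, Pycard, Rpl15, Ticam1, Ticam2, Tirap and Tlr4 were chosen after their values were seen. The members and lists were chosen with earlier results of these data known, and symbol stems, the intron level and the promoters were chosen with the data in view. The alternatives were the level, the number of arrays required, scaling, the mean over probe sets, and each array left out. Python 3.11.15, pandas 2.3.3, numpy 2.4.6 and matplotlib 3.10.9 were used. Promoter windows came from RefSeq, GRCm38.p6, and 15691 of 19505 genes had at least 1.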

Additional observations from a re-analysis of the deposited data

How the results depend on the processing

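No paired analysis was possible because 1 group is described and no test was made. The count of genes above background, 8518 as reported, was 8592 against the 95th percentile of the background probes, 7724 at 1 log2 unit above the brightest of them and 6939 against the intron level. It was 8801 when 2 arrays sufficed, 9124 when 1 did, 8515 with the mean over probe sets, and 8586 to 8645 with 1 array left out in turn. After quantile normalization or with array medians made equal it was 8518 and the same genes, as follows from their construction, since background probes and genes were moved together. Lineage markers above background numbered 52, with 41 at the intron level and 46 to 56 under the other settings. List members numbered 563, with 497 at the intron level and 526 to 594 otherwise. Of the 100 brightest genes, 96 to 100 were shared under each setting that changes the ranking. The counts of 7 of 56 lists moved by over 1.5 times at the intron level: dendritic cell markers (2), MHC class II (1) and chemokine receptors (1) kept some members, and T and NK cell, fibroblast, neuron and sex gene lists kept 0. With 1 array sufficing, T and NK cell markers and erythroid markers had 2 each and interferons 1. At 1 log2 unit above the brightest background probe 5 of 56 lists moved as far. Signal over background limits the genes near the level, and 3 arrays limit the precision of each mean.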

Other observations

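Of the 2634 transcript clusters without a gene name here, 849 (32.2%) were above background on all 3 arrays, and the brightest had a mean of 18.73, below Ccl3 alone among the named genes. By chromosome, the share of genes above background was 39.6% to 49.7% on the autosomes other than chromosome 7, against 32.9% on chromosome 7, 33% on chromosome X and 6.25% on chromosome Y. Among other symbol families, all but 1 of 21 general transcription factor genes (Gtf) and 44 of 48 translation initiation factor genes (Eif) were above background, against 1 of 31 claudins (Cldn) and 3 of 36 serine proteases (Prss). Of 68 genes with the stem Gpr, orphan receptors for the most part, 15 were above background, led by the medium-chain fatty acid receptor Gpr84 at 16.34.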
